A study of Mus musculus with 12 samples.

Results

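Messenger RNA for the cardiac myosin chains, their binding protein and the cardiac light chain kinase was measured in the hearts of mice with and without Cyb5r3 in cardiomyocytes. The genes were chosen by name: the heavy chains Myh6, Myh7 and Myh7b, the light chains Myl2, Myl3, Myl4 and Myl7, the myosin-binding protein Mybpc3 and the kinase Mylk3. All 9 were found among the 53700 genes of the count table and all 9 passed the filter on low counts, as did 17847 genes in all. The libraries came from the whole hearts of 6 ac-WT mice (CYB5R3wt/wt, Myh6-CreERT2) and 6 ac-CYB5R3-KO mice (CYB5R3fl/fl, Myh6-CreERT2). All 12 mice were male, carried the Cre recombinase that the Myh6 promoter drives in cardiomyocytes, and received tamoxifen at 33 mg/kg per day for 5 days between 10 and 13 weeks of age. Hearts were taken 5 days after the last dose, and RNA was made from a piece of the pulverized frozen tissue, so each library is 1 mouse. Since tamoxifen and Cre are present in both groups, no effect of either was measured here, and no mouse without them was compared.

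Myosin is the motor of the sarcomere. Each molecule holds a pair of heavy chains, which carry the ATPase head, and each heavy chain binds an essential and a regulatory light chain at its neck. In the mouse, the fast α heavy chain encoded by Myh6 predominates in the adult heart, and the slow β heavy chain encoded by Myh7 predominates in the ventricle before birth. A higher share of Myh7 is widely used as a marker of the fetal gene program in stressed hearts. The light chains also come in chamber forms, with Myl2 (regulatory) and Myl3 (essential) in the ventricle and Myl7 (regulatory) and Myl4 (essential) in the atria and the embryonic heart. Myh7b is another, less abundant heavy chain gene of heart and slow muscle. MyBP-C, the product of Mybpc3, binds the thick filament and sets how readily heads engage actin, and the kinase encoded by Mylk3 phosphorylates the Myl2 protein.

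Myh6 and Myh7 lie in tandem on the minus strand of chromosome 14. In the annotation of NCBIM37, Myh6 spans chr14:55560758-55585764 and Myh7 spans chr14:55589525-55613471, with 3760 bases between them. An intron of each heavy chain gene holds a microRNA gene on the same strand, Mir208a in Myh6, Mir208b in Myh7 and Mir499 in Myh7b (chr2:155436948-155460043, plus strand). The mature sequences are shown because they link the 3 heavy chain genes. They were taken from RefSeq (GRCm38.p6), with the seed, bases 2 to 8, in capitals.
mmu-miR-208a-3p: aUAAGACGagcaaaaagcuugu
mmu-miR-208b-3p: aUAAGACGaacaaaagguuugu
mmu-miR-499-5p: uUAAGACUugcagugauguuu
The seeds of miR-208a and miR-208b were identical at all 7 bases, and that of miR-499 matched them at 6 of 7.

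The sequence before the start of each gene was searched for letters known as sites of cardiac transcription factors. These were the MCAT element CATTCC, bound by TEAD factors, the GATA site AGATAA and the TATA box TATAAA, each on both strands and with no overlap between matches. RefSeq (GRCm38.p6) gave 12 windows of 250 bases for the 9 genes. MCAT letters were in 5 of the 12 windows, from 5 of the 9 genes, beside 12.6% of the 32851 windows of all genes. GATA letters were in 3 of the 12 windows (9.99% of all windows) and TATA letters in 1 (12.4%). Of the 4 genes in the heavy chain and essential light chain ratios below, Myh6, Myh7 and Myl3 had MCAT letters, shown in capitals, and the window of Myl4 had none and is not shown.
Myh6, chr14:54966608-54966857, minus strand: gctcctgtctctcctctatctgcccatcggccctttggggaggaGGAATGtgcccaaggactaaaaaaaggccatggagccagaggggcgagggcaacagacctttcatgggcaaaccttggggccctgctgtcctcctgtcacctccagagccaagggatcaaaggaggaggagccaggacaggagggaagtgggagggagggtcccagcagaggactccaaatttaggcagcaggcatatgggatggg
Myh7, chr14:54994627-54994876, minus strand: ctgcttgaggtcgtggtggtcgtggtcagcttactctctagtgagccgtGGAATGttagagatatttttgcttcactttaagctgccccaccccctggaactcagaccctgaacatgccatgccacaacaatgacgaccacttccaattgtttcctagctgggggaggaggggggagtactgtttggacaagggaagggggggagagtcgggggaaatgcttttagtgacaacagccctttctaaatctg
Myl3, chr9:110763428-110763677, plus strand: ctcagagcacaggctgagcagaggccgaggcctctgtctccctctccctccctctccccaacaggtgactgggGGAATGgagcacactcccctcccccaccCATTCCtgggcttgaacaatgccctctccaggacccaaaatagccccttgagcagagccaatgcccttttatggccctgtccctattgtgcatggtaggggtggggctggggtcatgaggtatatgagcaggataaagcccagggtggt
The element began 206 bases before the start in Myh6, 201 in Myh7, and 177 and 149 in Myl3. Another RefSeq start of Myh7 had no match in its window. These matches describe the letters only, and no binding was measured.

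Total counts were between 43393183 and 53754284 per library. Cyb5r3, the deleted gene, averaged 126 ± 38.4 CPM in ac-WT and 53.7 ± 9.07 CPM in KO hearts (SD, n = 6 each), and every KO heart (highest 67.4 CPM) was below every ac-WT heart (lowest 81.9 CPM). CPM (counts scaled to a common library size) are given here after TMM scaling, which corrects for differences in library composition. The TMM factors of ac-WT hearts 2 and 3 were 0.570 and 0.723, apart from those of the other 10 libraries at 0.988 to 1.22. The same libraries had the lowest summed level of 6 fibroblast markers, at 1420 and 1458 CPM, beside 4159 to 7033 CPM in the other ac-WT hearts and 3668 to 5658 CPM in KO hearts. They also had the highest summed level of 10 cardiomyocyte markers outside the 9 genes, at 40555 and 32827 CPM, beside 22009 to 30312 CPM in the other ac-WT hearts and 18191 to 29235 CPM in KO hearts. Log2 differences of the 9 genes and of their ratios are therefore also given without both, as are those of some other genes. Of the red blood cell markers, 3 of 4 tested were higher in KO hearts at an unadjusted p under 0.05, with sums of 222 to 4486 CPM in ac-WT and 1323 to 12226 CPM in KO hearts, and 0 of 6 fibroblast, 0 of 6 endothelial and 0 of 6 macrophage markers passed. The part of these cells in the myosin values was not tested. In bulk tissue, fewer cells of a type and less RNA per cell cannot be told apart.

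The tissue label was checked against atrial and ventricular markers. Sln, which encodes the atrial calcium pump inhibitor sarcolipin, had 0 to 2 counts per library. Bmp10, an atrial growth factor, had 0 to 3 counts, and Mybphl, an atrial binding protein related to Mybpc3, had 0 to 9. The libraries thus held almost no transcripts of these atrial genes, although the labels call the tissue whole heart. The other 7 of 10 atrial markers listed passed the filter, among them Kcna5, Dkk3 and Nr2f2, at means of 21.6, 18.0 and 10.1 CPM in ac-WT hearts. Nppa, which ventricular muscle can also express, was between 404.7 and 1616 CPM, and all 6 ventricular markers tested were present, among them Irx4, Hey2 and Kcnip2.

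Levels of the 9 genes were compared per kb of exon, as the plot of levels per exon length shows. In ac-WT hearts Myl2 was at a mean of 3129 CPM per kb and Myl3 at 2482. They were followed by Myh6 at 974, Mybpc3 at 509, Myh7 at 84.4, Mylk3 at 44.9 and Myh7b at 9.67 CPM per kb. Myl7 and Myl4, the atrial forms, came last, at 2.12 and 1.49 CPM per kb. Most steps of this order held within single hearts. Myl3 was above Myh6, Mybpc3 above Myh7, Myh7 above Mylk3 and Mylk3 above Myh7b in all 12 hearts, Myh6 above Mybpc3 in 11, Myh7b above Myl7 in 10 and Myl2 above Myl3 in 9. Myl7 was above Myl4 in 4 of 12 hearts, so the order of these neighbours was not settled, and with the length of the longest coding transcript in place of all exons Myl4 was at 7.34 and Myl7 at 2.12 CPM per kb. Lengths are from the NCBIM37 annotation, which is not known to be the one used for counting.

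**Figure D1:**
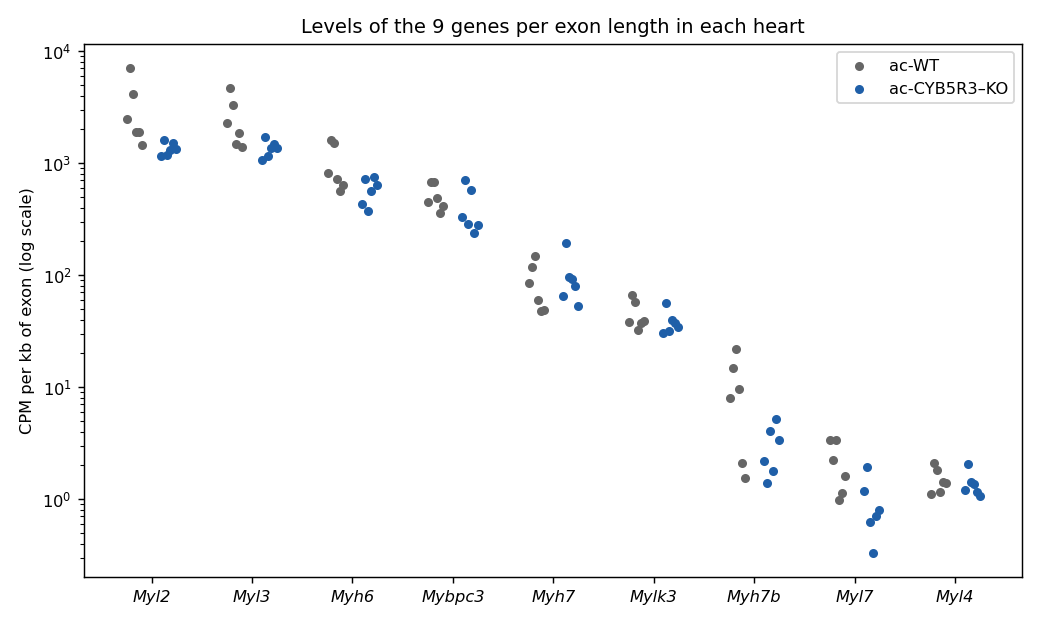
Level of each of the 9 genes in each heart, in TMM-normalized CPM per kb of exon on a log scale, with ac-WT hearts in grey and ac-CYB5R3-KO hearts in blue, 1 point per heart. Myl2 and Myl3 lead in both groups, and the atrial light chains Myl7 and Myl4 lie lowest, with means of 2.12 and 1.49 CPM per kb in ac-WT hearts.

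Of the heavy chains, Myh6 and Myh7b were lower on average in ac-CYB5R3-KO hearts and Myh7 was slightly higher, and no adjusted p was under 0.05. Myh6 was at 3590, 4917 and 10257 CPM (lowest, median and highest) in ac-WT and at 2403, 3862 and 4775 CPM in KO hearts. All 6 KO hearts were below the ac-WT median, while the ranges overlapped, and ac-WT hearts 2 and 3, at 10257 and 9727 CPM, stood far above the other 10 hearts. Myh6 had a log2 fold change of -0.75 (SE 0.30, unadjusted p = 0.0250 in edgeR's quasi-likelihood test, adjusted p = 0.270 by Benjamini-Hochberg over all genes). Without these hearts it was -0.22 (SE 0.21, unadjusted p = 0.302).

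Myh7 was at 412, 619 and 1268 CPM in ac-WT and at 455, 741 and 1661 CPM in KO hearts. The groups overlapped almost fully, and KO heart 2, at 1661 CPM, was the highest of the 12. The log2 fold change of Myh7 was 0.20 (SE 0.35, edgeR adjusted p = 0.813), and it was 0.70 (SE 0.33, unadjusted p = 0.0538) without ac-WT hearts 2 and 3 and -0.13 without KO heart 2. Myh6 and Myh7 are close paralogs. Of all stretches of 75 bases in their transcripts, 15.6% of those of Myh6 and 15.3% of those of Myh7 occur in the other gene, and how such reads were counted is not given in the sources used here.

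Myh7b was at 10.2, 58.3 and 145 CPM in ac-WT and at 9.32, 18.4 and 34.5 CPM in KO hearts. Within ac-WT, hearts 1 to 4 lay above all KO hearts, and hearts 5 and 6, at 14.0 and 10.2 CPM, lay within the KO range. For Myh7b the log2 fold change was -1.69 (SE 0.56, edgeR unadjusted p = 0.00975, adjusted p = 0.216), the largest of the 9 genes in size and also the one with the largest SE. Without ac-WT hearts 2 and 3 it was -0.81 (SE 0.51, unadjusted p = 0.136).

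**Figure D2:**
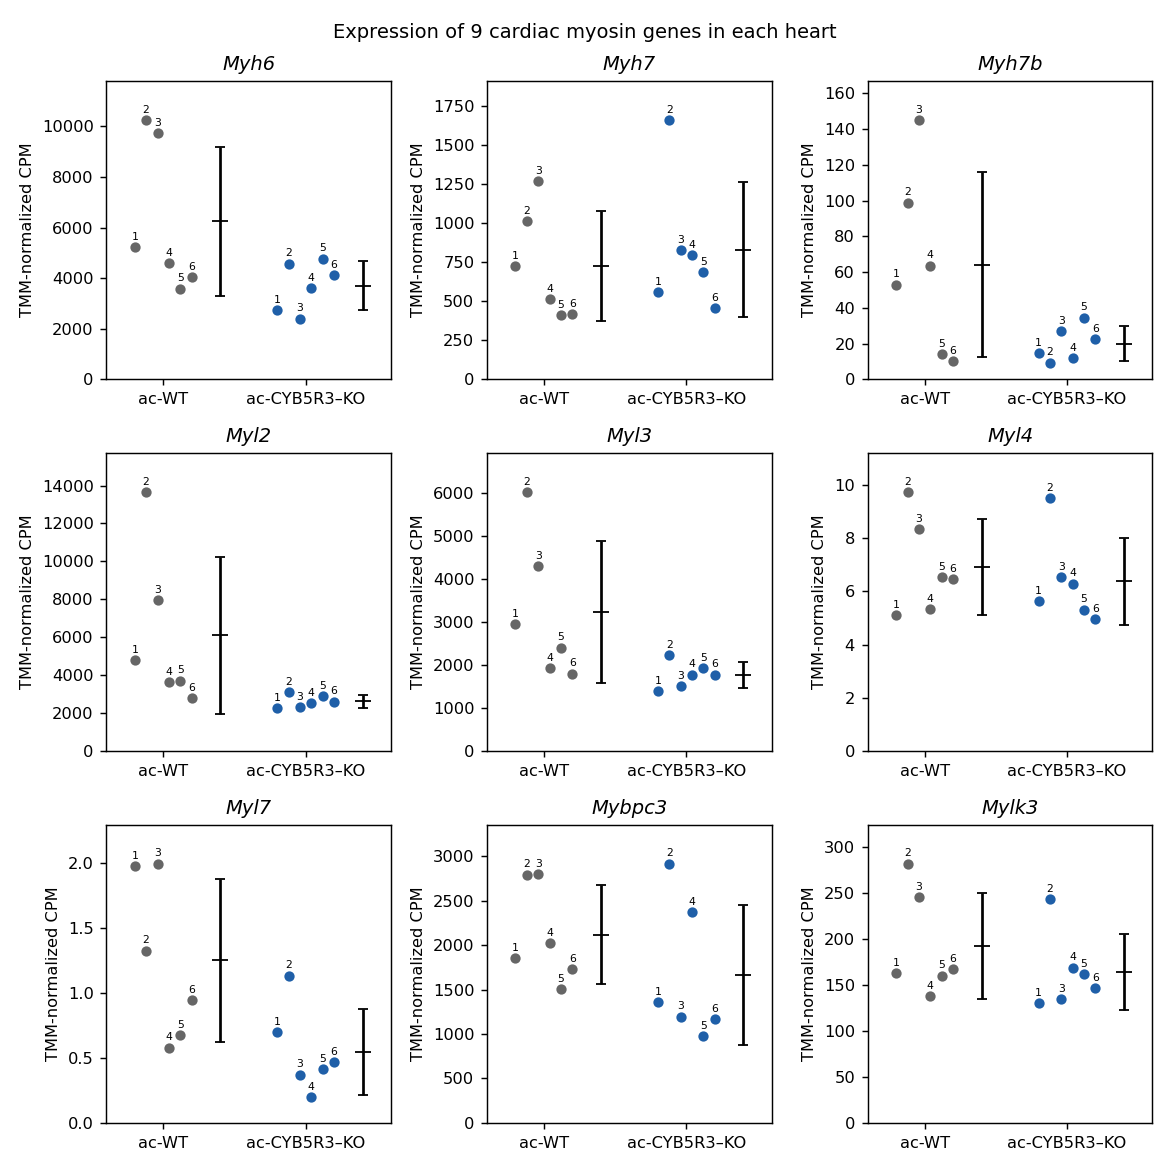
TMM-normalized CPM of each of the 9 genes in each heart, with ac-WT hearts in grey and ac-CYB5R3-KO hearts in blue, numbers giving the replicate and black bars the mean ± SD of 6 hearts. ac-WT hearts 2 and 3 are the highest of the 12 for Myh6, Myh7b, Myl2, Myl3 and Mylk3, and no gene separates the groups fully.

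Both ventricular light chains were lower on average in ac-CYB5R3-KO hearts. Myl2 was at 2807, 4253 and 13673 CPM in ac-WT and at 2270, 2576 and 3122 CPM in KO hearts. The KO hearts lay close together, 4 of them below the lowest ac-WT heart and all 6 below the ac-WT median, whereas ac-WT hearts 2 and 3 stood at 13673 and 7975 CPM. Myl2 had a log2 fold change of -1.22 (SE 0.35, edgeR unadjusted p = 0.00351, adjusted p = 0.184), and its adjusted p in DESeq2 was 0.0228. Without ac-WT hearts 2 and 3 it was -0.50 (SE 0.16, edgeR unadjusted p = 0.00847), and Myl2 was then the only one of the 9 genes with an unadjusted p under 0.05.

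Myl3 was at 1805, 2685 and 6037 CPM in ac-WT and at 1388, 1781 and 2231 CPM in KO hearts. As for Myl2, 4 KO hearts lay below the lowest ac-WT heart, all 6 lay below the ac-WT median, and ac-WT hearts 2 and 3 were the highest of the 12. The log2 fold change of Myl3 was -0.87 (SE 0.28, edgeR unadjusted p = 0.00851, adjusted p = 0.211) and -0.35 (SE 0.17, unadjusted p = 0.0678) without those hearts.

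The atrial light chains were scarce, and they differed from each other in pattern. Myl7 was at 0.581, 1.14 and 2.00 CPM in ac-WT and at 0.196, 0.441 and 1.14 CPM in KO hearts, from 28 to 105 and from 10 to 66 counts per library. All 6 KO hearts were below the ac-WT median and 4 were below the lowest ac-WT heart, with KO heart 2 the highest of its group. The log2 fold change of Myl7 was -1.18 (SE 0.42, edgeR unadjusted p = 0.0134, adjusted p = 0.234), and without ac-WT hearts 2 and 3 it was -0.92 (SE 0.46, unadjusted p = 0.0673).

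Myl4 was at 5.11, 6.50 and 9.75 CPM in ac-WT and at 4.97, 5.97 and 9.51 CPM in KO hearts, from 244 to 553 counts per library. The groups overlapped across nearly their whole range. On the log2 scale Myl4 differed by -0.11 (SE 0.19, adjusted p = 0.802 in edgeR), and its sign turned with total-count scaling, where it was 0.22, and without ac-WT hearts 2 and 3, where it was 0.14.

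Mybpc3 and Mylk3 had no unadjusted p under 0.05 with all hearts or without ac-WT hearts 2 and 3. Mybpc3 was at 1502, 1943 and 2804 CPM in ac-WT and at 980, 1280 and 2919 CPM in KO hearts, with KO hearts 2 and 4 at the top of their group and the other 4 KO hearts below every ac-WT heart. Its log2 fold change was -0.35 (SE 0.28, edgeR adjusted p = 0.577), and it was -0.081 without ac-WT hearts 2 and 3. Without KO heart 2 it was -0.58 (edgeR unadjusted p = 0.0423, adjusted p = 0.380). Mylk3 was at 138, 164 and 282 CPM in ac-WT and at 130, 154 and 243 CPM in KO hearts, and the hearts other than ac-WT 2 and 3 and KO 2 lay within a narrow band in both groups. Its log2 fold change was -0.23 (SE 0.20, edgeR adjusted p = 0.607), and it was 0.12 with total-count scaling and 0.082 without ac-WT hearts 2 and 3.

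Counted together, 0 of the 9 genes had an adjusted p under 0.05 in edgeR, beside 0.101% of all genes tested (0.0616% lower and 0.0392% higher), and 1, Myl2, did in DESeq2, beside 1.68% of all genes tested called lower there. At an unadjusted p under 0.05, 5 of the 9 were lower in KO hearts (Myh6, Myh7b, Myl2, Myl3 and Myl7) and 0 were higher, beside 9.73% of all genes lower, 4.91% higher and 14.6% in either direction. The groups did not overlap in 0 of the 9, beside 1.55% of all genes. The 9 genes had a median log2 fold change of -0.75, and that of all genes was -0.0074. Without ac-WT hearts 2 and 3 the median of the 9 was -0.22, with 6 of 9 lower in place of 8 of 9. With total counts in place of TMM the median of all genes moved to 0.26, the 9 genes had a median of -0.35, and 6 of 9 were lower. With the mean of the 10 cardiomyocyte markers as a covariate, 0 of the 9 had an unadjusted p under 0.05, beside 1105 of 17847 genes in all. How far that marker level accounts for the lower values was not tested further. The plot of log2 fold changes under 4 fits shows these shifts gene by gene.

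**Figure D3:**
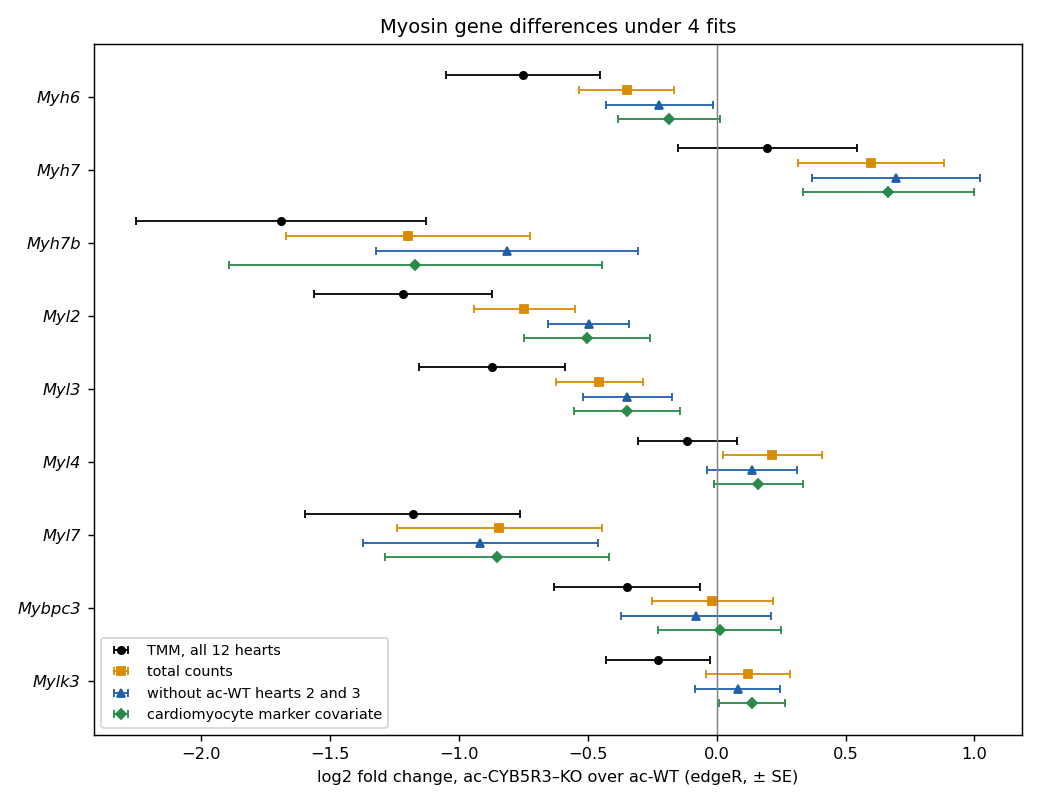
Log2 fold change, ac-CYB5R3-KO over ac-WT, of the 9 genes in edgeR under 4 fits, with bars for ± SE: TMM with all 12 hearts, total-count scaling, TMM without ac-WT hearts 2 and 3, and TMM with the cardiomyocyte marker covariate. Myh6, Myh7b, Myl2, Myl3 and Myl7 are below 0 in all 4 fits, Myh7 is above 0 in all 4, and Myl4, Mylk3 and Mybpc3 change sign, Mybpc3 only with the covariate (0.011).

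Ratios between genes of 1 heart do not depend on how libraries are scaled, and gene length cancels when such ratios are compared between hearts. Relative to Myh6, Myh7 was higher in ac-CYB5R3-KO hearts. For every 100 Myh6 counts, the ac-WT hearts 1 to 6 had 13.9, 9.88, 13.0, 11.1, 11.5 and 10.3 Myh7 counts, and the KO hearts 1 to 6 had 20.4, 36.3, 34.3, 22.1, 14.3 and 11.1. The ac-WT hearts were tightly grouped, hearts 2 and 3 among them, and 5 of 6 KO hearts lay above the highest ac-WT heart, the exception being KO heart 6. The means were 11.6 ± 1.56 (SD, n = 6) in ac-WT and 23.1 ± 10.3 (SD, n = 6) in KO hearts. The geometric mean ratio was 1.83-fold higher in KO hearts (log2 difference 0.87, two-sided exact permutation p = 0.0152, or 0.0325 after Benjamini-Hochberg adjustment over the 6 ratios tested). With ac-WT hearts 2 and 3 left out the log2 difference was 0.86 (exact permutation p = 0.0476, adjusted 0.129). Leaving out any 1 of ac-WT hearts 1, 2 and 3 gave an adjusted p of 0.0617, and any 1 of KO hearts 1, 2 and 3 gave 0.0519, with log2 differences from 0.72 to 0.93.

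Of the 2 parts of that ratio, Myh6 had the larger difference between groups with all hearts (log2 -0.75 against 0.20), and Myh7 had the larger one without ac-WT hearts 2 and 3 (0.70 against -0.22). The difference in the ratio was about the same size in both cases.

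The essential light chains shifted in the same direction. For every 10000 Myl3 counts, Myl4 had 16.1, 23.2 and 35.8 counts (lowest, median and highest) in ac-WT and 27.4, 38.0 and 43.2 counts in KO hearts. All 6 KO hearts were above the ac-WT median and 3 were above the highest ac-WT heart, which was heart 6. The ratio was 1.55-fold higher in KO hearts (log2 difference 0.63, exact permutation p = 0.0216, adjusted 0.0325). Its adjusted p was 0.0617 without any 1 of hearts 1, 2 and 3 of either group, and without ac-WT hearts 2 and 3 the log2 difference was 0.45 (exact permutation p = 0.0857). The level of Myl4 itself differed by -0.11 on the log2 scale and that of Myl3 by -0.87.

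For the regulatory light chains the ratio did not separate the groups, and its difference from the essential pair was not tested. For every 10000 Myl2 counts, Myl7 had 0.971, 2.16 and 4.13 counts in ac-WT and 0.772, 1.71 and 3.64 counts in KO hearts, with the groups overlapping across most of their range. The log2 difference was -0.24 (exact permutation p = 0.593), with an SD of 0.77 in ac-WT and 0.81 in KO hearts on the log2 scale, and it was -0.48 without ac-WT hearts 2 and 3 (exact permutation p = 0.371). With both atrial and both ventricular forms summed, the atrial forms had 5.62, 9.88 and 16.1 counts per 10000 ventricular counts in ac-WT and 11.8, 16.2 and 19.9 in KO hearts. All 6 KO hearts were above the ac-WT median. The summed ratio was 1.58-fold higher in KO hearts (log2 difference 0.66, exact permutation p = 0.0195, adjusted 0.0325). Its log2 difference was 0.41 without ac-WT hearts 2 and 3 (exact permutation p = 0.0810). Myl4 held most of the atrial counts, and its own level differed by -0.11 on the log2 scale, beside -1.22 for Myl2 and -0.87 for Myl3.

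Mylk3 was compared with Myl2, the substrate of its kinase. For every 100 Myl2 counts, Mylk3 had 2.06, 3.58 and 5.94 counts in ac-WT and 5.53, 5.79 and 7.79 counts in KO hearts. The KO hearts were close together and all above the ac-WT median, and ac-WT heart 6 alone in its group lay within their range. The ratio was 1.72-fold higher in KO hearts (log2 difference 0.78, exact permutation p = 0.0108, adjusted 0.0325), and the log2 difference was 0.53 without ac-WT hearts 2 and 3 (exact permutation p = 0.0238). Without any 1 of hearts 1, 2 and 3 of either group, the adjusted p of this ratio was 0.0519 to 0.0617. For the summed light chains it was 0.0617. Both of these ratios have Myl2 in the divisor, so they are not separate results. The level of Mylk3 itself differed by -0.23 on the log2 scale and that of Myl2 by -1.22.

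Mybpc3 was set against the summed heavy chains Myh6 and Myh7. For every 100 heavy chain counts it had 24.8, 34.4 and 39.6 counts in ac-WT and 18.0, 39.1 and 53.8 counts in KO hearts. The KO hearts lay both above and below the ac-WT range, and the log2 difference was 0.11 (exact permutation p = 0.706), and -0.075 without ac-WT hearts 2 and 3 (exact permutation p = 0.810).

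**Figure D4:**
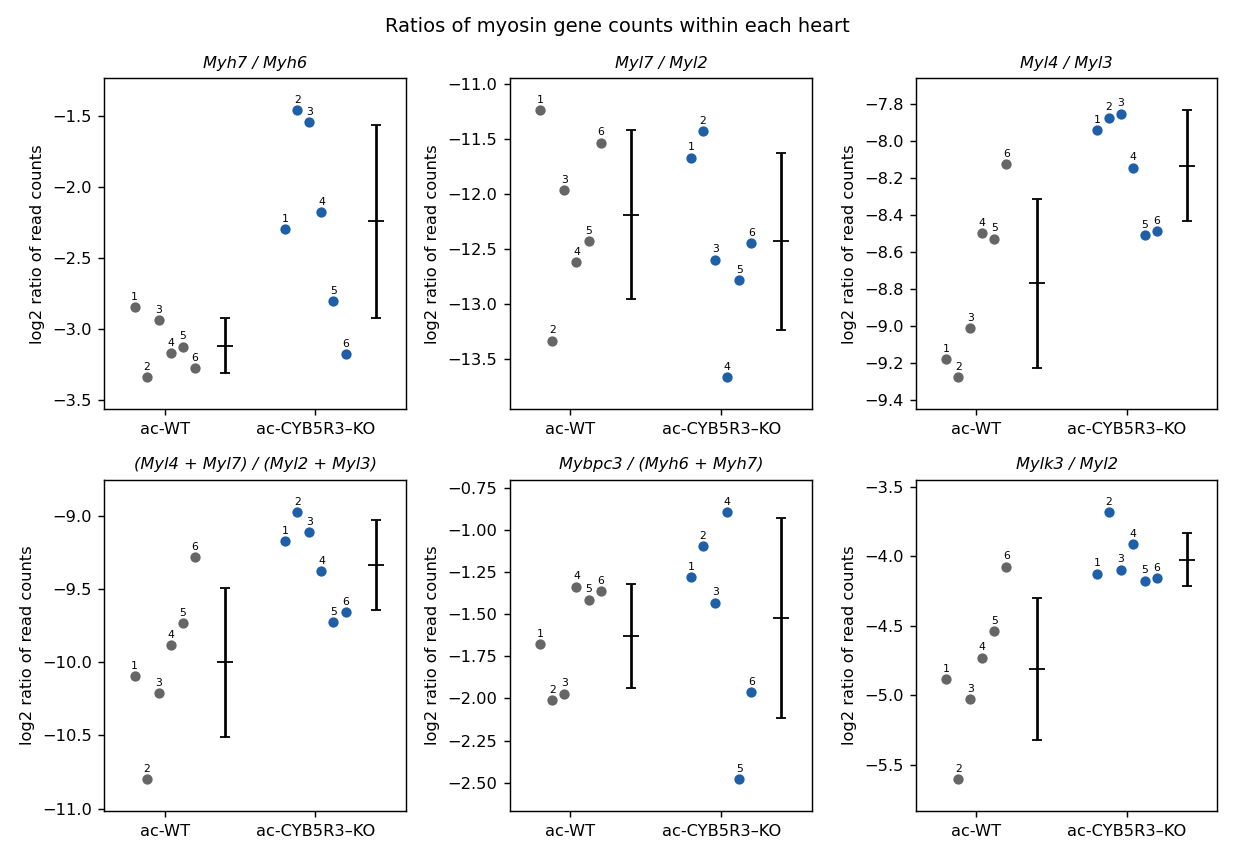
Log2 ratio of read counts within each heart for 6 pairs of genes or gene sums, with ac-WT hearts in grey and ac-CYB5R3-KO hearts in blue, numbers giving the replicate and black bars the mean ± SD of 6 hearts. Myh7 to Myh6, Myl4 to Myl3, the summed light chains and Mylk3 to Myl2 are higher in KO hearts, by 0.87, 0.63, 0.66 and 0.78 on the log2 scale, with 5, 3, 3 and 2 of 6 KO hearts above the highest ac-WT heart. Groups overlap in all 6 panels.

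The microRNA genes inside the heavy chain introns have rows of their own in the count table. With reads of total RNA these rows count fragments over the hairpin, which can come from the host's unspliced transcript, and they are not levels of the mature microRNAs. None of the 3 hairpins overlaps an exon of its host. Mir208b, in Myh7, had 112, 91, 386, 105, 19 and 16 counts in ac-WT hearts 1 to 6 and 21, 6, 51, 11, 34 and 26 counts in KO hearts 1 to 6. The 4 highest values were ac-WT hearts 1 to 4, and ac-WT hearts 5 and 6 lay within the KO range. For Mir208b the log2 fold change was -2.75 (SE 0.77, edgeR unadjusted p = 0.00320, adjusted p = 0.184), while that of its host Myh7 was 0.20. Over the 10 hearts other than ac-WT 2 and 3 it was -1.41 (unadjusted p = 0.0414). Mir208a, in Myh6, had 1 to 32 counts in ac-WT and 0 to 8 in KO hearts, and Mir499, in Myh7b, had 0 to 2 and 0 to 1, and both were below the filter. The same split of hearts, with ac-WT 1 to 4 above the rest, was seen for Myh7b and Mir208b, whereas Myh7 and Myh6 did not show it.

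Genes whose level followed that of a member most closely over the 12 hearts are given as a description, by Pearson's r of log2(CPM + 1). All points of a gene pair share library, depth and scaling. For Myh6 they were Wdr33, Wnk2, Car14, Celsr1 and Sgca, with r from 0.951 to 0.963 and, without ac-WT hearts 2 and 3, from 0.820 to 0.867. For Myh7 they were ENSMUSG00000096910, 1110049F12Rik, Crybb1, Gm447 and Lamb2, with r from 0.908 to 0.925, and 0.897 to 0.928 without those hearts. The leading genes of the heavy chains thus did not overlap, and those of Myh7b were again others, ENSMUSG00000115610, Mlxipl, Pfkfb2, Hnrnph3 and Appl2, with r from 0.957 to 0.976. Myl2 was followed most closely by Fitm1, Fam195a, Gm16418, Ndufa1 and Uqcr11, with r from 0.986 to 0.993. Ndufa1 and Uqcr11 encode subunits of the mitochondrial respiratory chain. Myl7 was followed by Zbtb37, Ppl, Mettl7a3, Aldh1l1 and Mcpt4, with r from 0.877 to 0.947, and Mylk3 by Gnpat, Slc20a2, Rgs6 and Adcy5, with r from 0.958 to 0.977. Gnpat encodes a peroxisomal enzyme of ether lipid synthesis.

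Among the other myosin genes no adjusted p in edgeR was under 0.05, and single genes leaned in both directions. The counts at an unadjusted p under 0.05 in this and the following lists stand beside 9.73% of all genes lower and 4.91% higher (14.6% either way). Of 11 other heavy chains 6 were tested, with 2 lower and 1 higher at an unadjusted p under 0.05. Myh11, the smooth muscle heavy chain, was 20.8 ± 10.5 CPM (SD, n = 6) in ac-WT and 10.9 ± 1.29 CPM (SD, n = 6) in KO hearts, with a log2 fold change of -0.93 (edgeR adjusted p = 0.184). Myh10, a nonmuscle heavy chain, had a log2 fold change of 0.41 (edgeR adjusted p = 0.298), and Myh4, of fast skeletal muscle, had -0.82 (edgeR adjusted p = 0.288) at 14 to 65 counts per library. In the fit of the 10 hearts other than ac-WT 2 and 3 these values were -0.36 for Myh11, 0.18 for Myh10 and -0.62 for Myh4, the last then with an unadjusted p of 0.134. Skeletal muscle markers were mixed in level: Myh1 and Myh2 had 0 to 5 counts and Tnnc2 0 to 1, while Tnni2 had 69 to 277 (log2 fold change -0.62, edgeR adjusted p = 0.337) and Tnnt3 201 to 1690 (0.52, adjusted p = 0.508). The other smooth muscle markers did not all go the way of Myh11: of 6 in that list, 3 were lower, Acta2 (-0.89, edgeR adjusted p = 0.144), Smtn (-0.65) and Myh11 itself, and Cnn1 was higher (1.04) at an unadjusted p under 0.05. With ac-WT hearts 2 and 3 left out, Smtn was -0.17 and Cnn1 0.75, and neither then passed.

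Of 8 other light chains 7 were tested, and 6 of these had a value above 0. Myl1, an essential light chain of fast skeletal muscle and the embryonic heart, was 162 ± 75.4 CPM (SD, n = 6) in ac-WT and 304 ± 78.2 CPM (SD, n = 6) in KO hearts. Its range was 78.0 to 254 CPM in ac-WT and 189 to 416 CPM in KO hearts, so the groups overlapped. The log2 fold change of Myl1 was 0.91 (SE 0.29, edgeR unadjusted p = 0.00715, adjusted p = 0.203), the opposite sign to that of Myl3, and 0.64 (unadjusted p = 0.0236) without ac-WT hearts 2 and 3. Myl6 and Myl12a, of smooth and nonmuscle myosin, had log2 fold changes of 0.26 and 0.16 (edgeR adjusted p = 0.431 and 0.498). The list had a median of 0.16.

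Of 11 other kinases, phosphatase subunits and binding proteins 8 were tested, with 2 lower and 2 higher at an unadjusted p under 0.05. Mylk4, a kinase related to Mylk3, was 15.1 ± 10.8 CPM (SD, n = 6) in ac-WT and 5.38 ± 2.33 CPM (SD, n = 6) in KO hearts (log2 fold change -1.48, edgeR adjusted p = 0.224). Mylk, the smooth muscle kinase, had -0.44 (edgeR adjusted p = 0.277). The 2 higher genes were skeletal muscle forms: Mylk2, with a log2 fold change of 1.08 (edgeR adjusted p = 0.230) at 1 to 47 counts, and Mybpc2, the fast counterpart of Mybpc3, with 0.68 (edgeR adjusted p = 0.267). Over the 10 hearts other than ac-WT 2 and 3, Mylk4 was -0.70, Mylk -0.15 and Mybpc2 0.51, none with an unadjusted p under 0.05, and Mylk2 was 0.81 (unadjusted p = 0.0252).

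Of the 7 genes for folding and turnover of myosin, 2 were lower at an unadjusted p under 0.05, the myosin chaperone Unc45b (log2 fold change -0.40, edgeR adjusted p = 0.276) and the methyltransferase Smyd1 (-0.43, adjusted p = 0.298), and Hsp90aa1 had 0.29 (adjusted p = 0.381). In the fit of the 10 hearts other than ac-WT 2 and 3, Unc45b and Smyd1 were -0.12 and -0.13 and did not pass, and Hsp90aa1 was 0.30 (unadjusted p = 0.00597). Of 18 regulators of myosin genes 17 were tested, and 1 had an unadjusted p under 0.05. This was Tead1, which encodes a factor that binds the MCAT element shown above, at 46.1 ± 6.11 CPM (SD, n = 6) in ac-WT and 63.4 ± 13.1 CPM (SD, n = 6) in KO hearts (log2 fold change 0.46, edgeR unadjusted p = 0.00507, adjusted p = 0.193), and 0.41 (unadjusted p = 0.0208) without ac-WT hearts 2 and 3. Dio2, which encodes an enzyme that activates thyroid hormone, had 0.91 (edgeR adjusted p = 0.351), and the thyroid hormone receptor gene Thra had -0.26 (edgeR adjusted p = 0.374), and these were 0.52 and -0.12 without those hearts. Whether these levels have a part in the heavy chain ratio was not tested.

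Of the 11 genes of the thin filament and the rest of the sarcomere, 1 was lower at an unadjusted p under 0.05. This was Tnni3, which encodes cardiac troponin I, at 2422 ± 1300 CPM (SD, n = 6) in ac-WT and 1202 ± 207 CPM (SD, n = 6) in KO hearts (log2 fold change -1.01, edgeR adjusted p = 0.184). Ttn and Actn2 had -0.46 and -0.42 (edgeR adjusted p = 0.388 and 0.362), and Actc1, the cardiac actin gene, was 0.08. The median of this list was -0.17, beside -0.75 for the 9 genes. Atp2a2, the sarcoplasmic reticulum calcium pump among the cardiomyocyte markers, had -0.64 (edgeR adjusted p = 0.267). With ac-WT hearts 2 and 3 left out, Tnni3 was -0.46 (unadjusted p = 0.00872), Ttn -0.035, Actn2 -0.23, Actc1 0.21 and Atp2a2 -0.28, the last no longer with an unadjusted p under 0.05.

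Of 10 atrial markers 7 were tested, 1 of them, Kcna5, with an unadjusted p under 0.05 (log2 fold change -0.77, edgeR adjusted p = 0.321), and the sum of the list was 484 to 1015 CPM in ac-WT and 516 to 1690 CPM in KO hearts. Dkk3 had 0.93 (adjusted p = 0.341) and Nr2f2 0.16 (adjusted p = 0.594). Of 6 ventricular markers 2 were lower at an unadjusted p under 0.05, Kcnip2 (-1.17, edgeR adjusted p = 0.261) and Fhl2 (-0.50, edgeR adjusted p = 0.196), and Irx5 had 0.45 (adjusted p = 0.480). In the 10 hearts other than ac-WT 2 and 3, Kcna5 was -0.46 and Kcnip2 -0.43, and neither passed. Nr2f2 was 0.097, while Dkk3 was 0.47 (edgeR unadjusted p = 0.00202) and Irx5 0.83 (edgeR unadjusted p = 0.0110). Irx3, another ventricular marker, was then 0.54 (edgeR unadjusted p = 0.0378), beside 0.10 with all hearts. The sum of this list was 752 to 1127 CPM in ac-WT and 477 to 858 CPM in KO hearts. The part of either list in the light chain ratios was not tested.

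**Figure D5:**
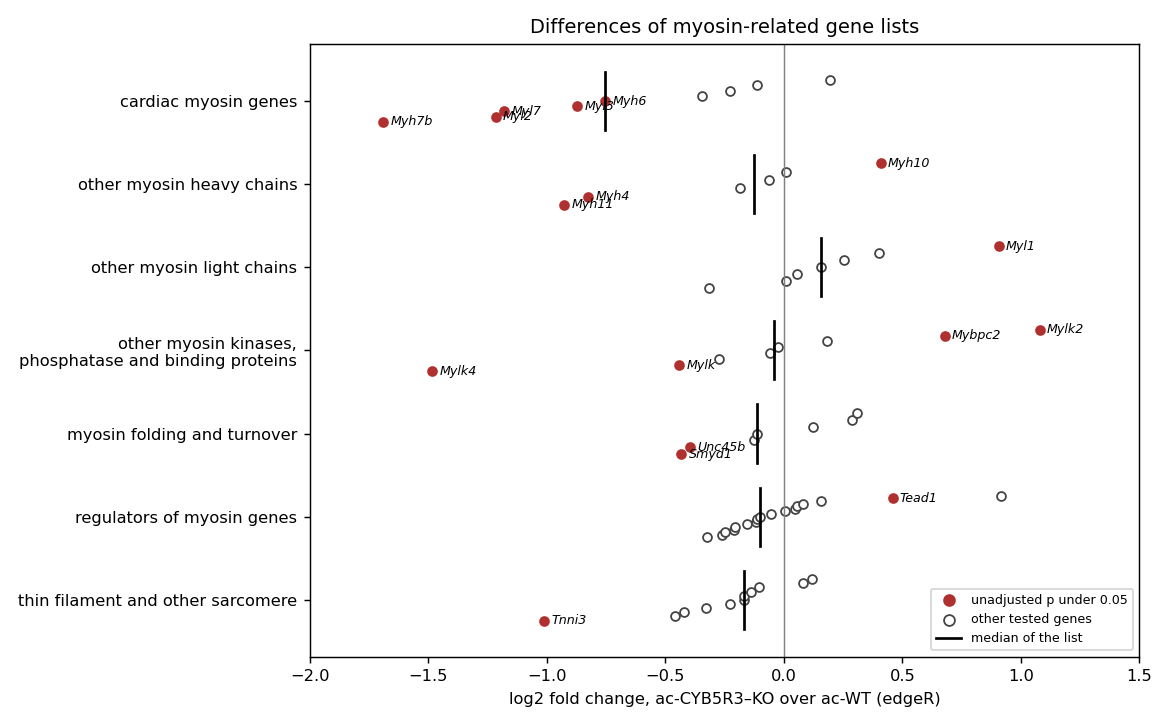
Log2 fold change, ac-CYB5R3-KO over ac-WT in edgeR, of the tested genes of 7 lists, 1 point per gene, filled and named where the unadjusted p was under 0.05, with a black line at each list's median. The 9 cardiac myosin genes have a median of -0.75, the other light chains 0.16 and the thin filament and other sarcomere genes -0.17.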

How the data were processed

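RNA was isolated from 12 mouse hearts and sequenced by the authors as stranded total RNA with unpaired reads. The authors deposited raw read counts per Ensembl gene, not normalized or filtered. Their processing notes name STAR, featureCounts and GRCm39, the study's methods name mm9 and FPKM from Cufflinks, and the strand setting and annotation are not given in the sources used here. Groups came from the labelled genotypes, 6 hearts each, and 0 columns were left unused.

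Counts were filtered (filterByExpr, minimum count 10), scaled by TMM and tested, on both sides, with edgeR 4.0.16 (glmQLFit and glmQLFTest, R 4.3.3) and Benjamini-Hochberg adjustment over 17847 genes. On simulated counts of 17708 genes for these groups, it called 71 of 97 genes changed by 1 on the log2 scale, 90 of 95 changed by 2, and 9 unchanged genes. The simulated hearts shared 1 profile apart from the set changes, without the composition of ac-WT hearts 2 and 3. The simulation therefore does not give the share of changes found in the real hearts. Per-heart log2 ratios of counts were compared by exact permutation over 924 placements of the hearts, with a smallest possible p of 0.00216. Alternatives were DESeq2 1.42.0, limma-voom (limma 3.58.1), other scalings and filters, 1 surrogate variable (sva 3.50.0), a cardiomyocyte marker covariate, a replicate block, and leaving out hearts. The study's own test, Cuffdiff, takes no counts. Symbols were found for 31027 identifiers, 2 list genes were matched by a synonym, and Purb and 2 globin genes were not matched.

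Genes described were all 9 members, and in each list, markers of other cells included, every gene with an adjusted p under 0.05 or otherwise the 3 smallest p-values. Mylk, Cnn1, Actc1, low skeletal genes and the hairpin rows were added after their values were seen. So was the fit of genes outside the 9 without ac-WT hearts 2 and 3, and from it Irx3, Col3a1, Lum, Adgre1 and Slc4a1. For 6 members the genes most alike in level were named by correlation, and 1 of these is not reported here. Members and lists were chosen with earlier results of these data known. Counting error was small beside the spread between mice at this depth, except for Myl7 and the hairpins, and since no molecular identifiers were used, PCR copies count as separate reads.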

Additional observations from a re-analysis of the deposited data

Results flagged for a closer look

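KO heart 2 stood apart from the other 5 hearts of its group for 3 genes, by Dixon's criterion for 6 values. Its Myh7 level was 1661 CPM, beside 455 to 825 CPM in the other KO hearts. Its Myl4 level was 9.51 CPM, beside 4.97 to 6.53 CPM, and its Mylk3 level was 243 CPM, beside 130 to 169 CPM. In all, 30 groups of 6 hearts were examined, and chance alone gives about 1 in 20. Without KO heart 2 the log2 fold change of Myh7 was -0.13, that of Myl4 -0.26, that of Mylk3 -0.37 and that of Mybpc3 -0.58.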

How the results depend on the processing

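Hearts with the same number are different mice. Their deviations correlated at -0.160 to 0.360 over the 6 pairs, with a mean of 0.133, beside -0.025 over the 30 other pairs. Of the KO hearts 3 of 6, and of the ac-WT hearts 3 of 6, correlated best with their own number. The labels do not say whether a number marks a shared step, and the main fit did not use it. With the number as a block, 3 of the 9 genes had an unadjusted p under 0.05, beside 2624 of 17847 genes in all. The exact sign-flip test gave an adjusted p of 0.188 for 4 ratios. These were Myh7 to Myh6 (log2 difference 0.87), Myl4 to Myl3 (0.63), the summed light chains (0.66) and Mylk3 to Myl2 (0.78). For Myh7 to Myh6 the unadjusted p of 0.0313 is the smallest that this test can give, with all 6 differences above 0. The count at an unadjusted p under 0.05 was 5 with all hearts and TMM, beside 2614 of 17847 genes in all. With total counts it was 3, all lower, beside 2053 genes, 367 of them lower. With 1 surrogate variable it was 1 (Myh7, higher), beside 1419 genes, and with the marker covariate 0, beside 1105. Without ac-WT hearts 2 and 3 it was 1, beside 1461 of 18299. It was 4 to 6 when 1 heart was left out, beside 1888 to 3368 genes in all. The count at an adjusted p under 0.05 was 0 in edgeR and 1 in DESeq2.

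Without ac-WT hearts 2 and 3, the log2 differences of those 4 ratios were 0.86, 0.45, 0.41 and 0.53 (adjusted exact permutation p = 0.129 for each), and that of Mybpc3 to the heavy chains was -0.075. With 1 heart left out they ranged from 0.72 to 1.06 for Myh7 to Myh6, 0.53 to 0.76 for Myl4 to Myl3, 0.50 to 0.81 for the summed light chains, 0.63 to 0.93 for Mylk3 to Myl2, -0.47 to 0.0019 for Myl7 to Myl2 and -0.020 to 0.30 for Mybpc3 to the heavy chains. The first 4 then had adjusted p-values of 0.0130 to 0.0617, with fewer placements of the hearts to draw on.

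Signs turned for some log2 fold changes near 0. Myl4 was 0.22 with total counts, 0.11 with 1 surrogate variable, 0.16 with the covariate and 0.14 without ac-WT hearts 2 and 3, and Mylk3 was 0.12, 0.082, 0.14 and 0.082. Mybpc3 was 0.011 with the covariate. With 1 heart left out, Myh7 ranged from -0.13 to 0.44 and Myl4 from -0.26 to 0.019. Without ac-WT hearts 2 and 3, chosen for other genes after seeing the data, Col1a1 was -0.10, Col1a2 -0.056 and Ptprc -0.15. The cause was not tested. Myh6, Myh7b, Myl2, Myl3 and Myl7 were lower in KO hearts under every alternative run. At 10 to 105 counts per library, Myl7 is the gene most limited by depth.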

Other observations

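Markers of cells other than cardiomyocytes with the smallest p-values of their lists are given as log2 fold changes, ac-CYB5R3-KO over ac-WT. In edgeR no adjusted p was under 0.05, with all hearts or without ac-WT hearts 2 and 3. Of the fibroblast genes, the collagen genes Col1a1 and Col1a2 had 0.35 and 0.39, and Dcn, which encodes decorin, had -0.12. Of the endothelial genes Kdr had -0.32, Emcn 0.22 and Tek -0.15, and of the macrophage genes Cd68 had -0.37, Ptprc 0.11 and Csf1r -0.037. The red blood cell genes Hba-a1, Hba-a2 and Alas2 had 1.61, 1.61 and 1.62, and 2.39, 2.38 and 2.36 without ac-WT hearts 2 and 3. Hba-a1 and Hba-a2 are near-identical copies, so their counts are uncertain. Without ac-WT hearts 2 and 3 Cd68 was -0.75 (edgeR unadjusted p = 0.0459), Csf1r -0.36 and Dcn -0.32. Col3a1, Lum and Adgre1, at -0.092, -0.14 and -0.025 with all hearts, were -0.52, -0.45 and -0.41 without those 2. Slc4a1, of red blood cells, was 1.96 (edgeR unadjusted p = 0.0138), beside 0.96 with all hearts.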
